A study of Mus musculus with 8 samples.

Results

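The 4 wild-type (WT) libraries of the series were described here without any contrast between genotypes. They are 4 of 8 libraries, and each holds read counts for the same 27710 genes. The cells were mouse bone marrow cells left after depletion of cells with lineage markers, grown in a medium with serum and the mouse cytokines stem cell factor, thrombopoietin, Flt3 ligand and interleukin-3. One WT library came from cells given no agent and is called unlabelled. The other 3 came from cells fed 100 µM 4-thiouridine (s4U) for 2 h, a uridine analogue that marks newly made RNA, and are called fed replicates 1, 2 and 3. All RNA went through a chemistry that recodes incorporated s4U, and libraries were made from total RNA with a stranded kit for low inputs. The other 4 libraries, from Vav-iCre+; Alkbh5fl/fl cells with the same feeding, served only as further libraries in which to look at spread. Vav-iCre is a recombinase known for its activity in blood cells. The labels do not say whether the WT libraries came from separate animals or cultures, so p-values below measure only the spread between these samples.

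Blood stem cells give rise to progenitors that commit stepwise to granulocyte, monocyte, mast cell and basophil, megakaryocyte, erythroid and lymphoid fates. Stem cell factor signals through Kit, Flt3 ligand through Flt3, and interleukin-3 through Il3ra with the beta chains Csf2rb or Csf2rb2. Early granulocyte progenitors make the proteins of primary granules, among them myeloperoxidase (Mpo) and the serine proteases neutrophil elastase (Elane), proteinase 3 (Prtn3) and cathepsin G (Ctsg), before the genes of secondary and tertiary granules come on. The factor PU.1, encoded by Spi1, binds purine-rich sites with a GAGGAA core and is known for its part in myeloid gene transcription.

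The RefSeq promoters of those 4 granule genes (GRCm38.p6, 250 bases before to 50 bases after the start of the gene, printed 5′ to 3′ on the gene's strand) are shown because these genes led the primary granule list, and each had its highest level in fed replicate 1. Capitals mark GAGGAA on either strand. The sequences cover chr11:87793534-87793833 (+) for Mpo, chr10:79886062-79886361 (+) for Elane, chr10:79879417-79879716 (+) for Prtn3 and chr14:56102525-56102824 (-) for Ctsg.
Mpo: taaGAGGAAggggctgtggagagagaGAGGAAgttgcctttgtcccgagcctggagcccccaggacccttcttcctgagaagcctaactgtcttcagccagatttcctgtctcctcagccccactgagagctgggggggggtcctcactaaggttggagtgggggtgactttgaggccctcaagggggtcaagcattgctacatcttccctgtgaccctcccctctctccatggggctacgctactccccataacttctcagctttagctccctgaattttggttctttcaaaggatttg
Elane: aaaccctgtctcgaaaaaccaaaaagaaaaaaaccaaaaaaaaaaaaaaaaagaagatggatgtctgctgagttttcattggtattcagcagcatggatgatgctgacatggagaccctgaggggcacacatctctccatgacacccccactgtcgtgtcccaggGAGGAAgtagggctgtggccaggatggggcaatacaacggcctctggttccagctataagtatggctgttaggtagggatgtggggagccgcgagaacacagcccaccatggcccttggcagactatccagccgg
Prtn3: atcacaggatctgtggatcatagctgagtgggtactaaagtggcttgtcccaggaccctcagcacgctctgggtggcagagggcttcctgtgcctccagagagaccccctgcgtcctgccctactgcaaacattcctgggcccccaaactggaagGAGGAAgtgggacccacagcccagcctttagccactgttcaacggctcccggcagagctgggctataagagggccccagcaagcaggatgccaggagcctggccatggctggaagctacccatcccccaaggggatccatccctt
Ctsg: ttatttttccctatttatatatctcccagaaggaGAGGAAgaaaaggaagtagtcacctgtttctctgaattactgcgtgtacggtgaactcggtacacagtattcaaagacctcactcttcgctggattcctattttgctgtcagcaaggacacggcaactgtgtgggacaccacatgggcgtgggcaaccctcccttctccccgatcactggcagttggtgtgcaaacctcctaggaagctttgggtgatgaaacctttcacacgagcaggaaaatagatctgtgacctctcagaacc
GAGGAA was found 2 times in the Mpo window and 1 time in each of the other windows. The matches began 247 and 224 bases before the start of Mpo, 85 before Elane, 95 before Prtn3 and 216 before Ctsg. The same letters occur in 28.1% of the 32544 RefSeq promoters of that length, and they were chosen after the sequences had been seen. The motif TTGCNNAA, a simplified C/EBP site, was found in none of the 4 windows and in 10.8% of all promoters.

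Gene counts totalled 7193176 in the unlabelled library and 6338915, 8404565 and 5723245 in fed replicates 1, 2 and 3. Unless said otherwise, 4 values given in a row below are for these libraries in this order. CPM scales the gene counts of each library to the same total, and TPM does so after division by merged exon length. Levels of different genes are compared only as TPM. Reads in no gene made up 51.7%, 38.3%, 48.9% and 49.5% of all counts, so fed replicate 1 stood below the others. Fed replicate 3 stood apart in another way: 14.2% of its gene counts lay in Gm26917 and 3.52% in Gm42418, both in a ribosomal repeat, against 6.53% to 6.83% and 1.82% to 2.14% in the other WT libraries. The median absolute log2 difference in CPM between 2 WT libraries, over 9004 genes with a mean of at least 10 CPM, ran from 0.24 between the unlabelled library and fed replicate 2 to 0.47 between the unlabelled library and fed replicate 3. Xist, transcribed from the inactive X chromosome, stood at 1272, 0.158, 2079 and 0 CPM, and the Y-linked Ddx3y at 41.6, 31.6, 0 and 44.6 CPM. A count of 0 allows up to 0.524 CPM in fed replicate 3 and 0.357 CPM in fed replicate 2. Fed replicate 2 thus had the RNA of female cells and fed replicates 1 and 3 that of male cells, so at least 2 animals contributed to the fed libraries. The unlabelled library had RNA of both sexes.

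Alkbh5, the gene deleted in the other genotype (ENSMUSG00000042650.3, GRCm38 chromosome 11, 60536381 to 60558512 on the plus strand), gave 1263, 1166, 1479 and 1061 counts in the WT libraries. These are 176, 184, 176 and 185 CPM, with a highest to lowest ratio of 1.06. Its spread between fed libraries did not exceed counting error, and it ranked among the steadiest of 2071 protein-coding genes with a mean of at least 100 CPM, whose median ratio was 1.55. Poldip3 and Hnrnpa1, which encode RNA-binding proteins and had ratios of 1.04 and 1.04, were others.

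Of the 27710 genes, 12426 (44.8%) had at least 1 CPM in all 4 WT libraries, among them 10844 of 16456 protein-coding genes, and 3822 had no count in any. A mean of at least 100 CPM was reached by 2118 genes. The median of the protein-coding genes with at least 1 CPM in all 4 libraries was 21.6 TPM. The counts were spread over many genes in the unlabelled library, where 857 genes held 50% of all gene counts, and over fewer in fed replicates 1, 2 and 3, where 655, 754 and 489 did. The 100 highest genes took 23.1%, 26.5%, 25.3% and 33.5% of gene counts. Genes of the mitochondrial genome were not among the rows and were not analysed here.

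Outside the protein-coding class, the 5 genes that took the most reads, with no correction for length, were Gm26917, Gm42418, Malat1, Rn7sk and Rpph1. The nuclear RNA Malat1 stood at 10745, 4089, 9952 and 5792 CPM, lower in fed replicates 1 and 3 than in the other WT libraries. Rn7sk, which holds back transcription elongation as a part of the 7SK particle, stood at 4302, 1994, 5738 and 3568 CPM. Rpph1, the RNA of ribonuclease P, stood at 2025, 1249, 3108 and 5412 CPM, with a further 61.0% of the reads that touched it left uncounted because they also touched another gene. All 3 were lowest in fed replicate 1.

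Genes of translation and granulocyte proteins led the protein-coding RNA. Of the 20 protein-coding genes with the highest mean TPM, 10 encode ribosomal proteins (Rplp1, Rplp0, Rpl19, Rps23, Rpsa, Rpl8, Rpl26, Rpl36, Rpl4 and Rps15) and 2 translation elongation factors (Eef1a1 and Eef2). Ribosomal protein and elongation factor genes have many near-identical copies, so their counts are uncertain. Rplp1 led with 6154, 9652, 7725 and 7847 TPM (8408 ± 1079 over the fed libraries, SD, n = 3). The cytoskeletal Actb, the chaperone Hsp90ab1, the chromatin proteins Ptma and Anp32b, and the linker histone Hist1h1c were also among the 20. The remaining 3 were myeloid effector genes: Mpo on rank 6, Lyz2 on rank 9 and S100a9 on rank 15. Hsp90ab1, with 5365, 5915, 5350 and 5192 TPM, varied little. Lyz2, which encodes lysozyme, varied more, with 2719, 6992, 4001 and 2005 TPM.

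**Figure D1:**
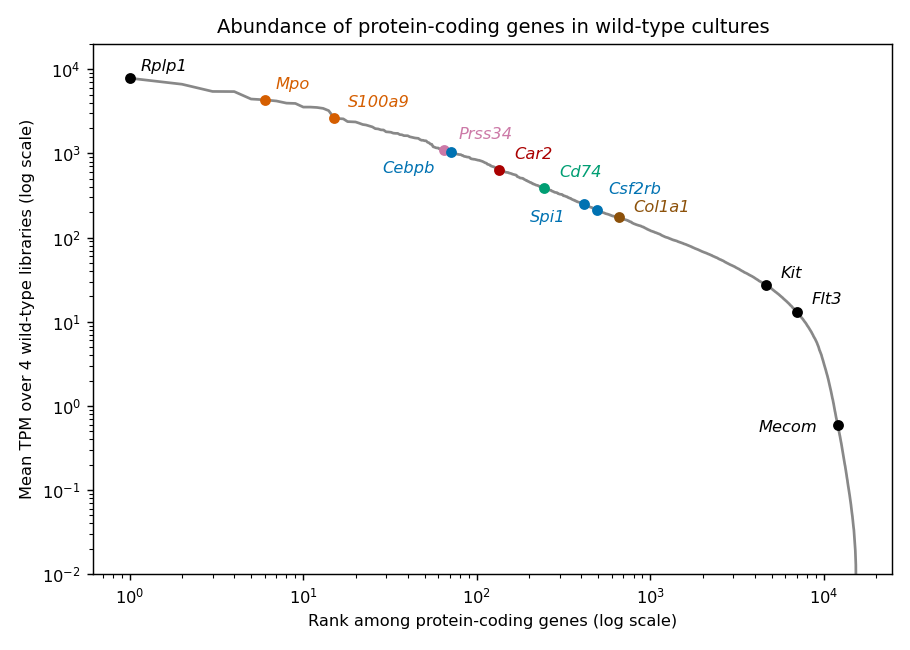
Mean TPM over the 4 WT libraries (y axis, log scale) against the rank among protein-coding genes (x axis, log scale), with named genes as points on the curve. Mpo, on rank 6, had 4336 TPM, while the cytokine receptor genes Kit and Flt3 had 27.1 and 13.2 TPM.

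Lineage content was described by 12 marker lists, each summed in CPM and compared between libraries, not with other lists. In bulk RNA, more cells of a type and more RNA per cell cannot be told apart. The 9 primary granule genes summed to 4491 CPM in the unlabelled library and to 10088, 5790 and 6949 CPM in fed replicates 1, 2 and 3 (7609 ± 2224 over the fed libraries, SD, n = 3). Mpo stood at 3122, 6689, 3531 and 4000 TPM, Elane at 1457, 2920, 1870 and 2028 TPM. Ctsg had 615, 1325, 726 and 743 TPM and Prtn3 had 550, 1122, 744 and 936 TPM. Each of the 4 genes was highest in fed replicate 1 and lowest in the unlabelled library. None of the 9 had a CV above 0.5 between the fed libraries, where the CV is the coefficient of variation of CPM with the counting part removed. Over all 8910 genes with a mean of at least 10 CPM in the fed libraries, 4.43% had a CV above 0.5, and the median CV was 0.182.

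Late neutrophil genes, those of secondary and tertiary granules and of mature cells, spread further between the libraries than the primary granule genes. The 20 genes summed to 1946, 4667, 2514 and 1052 CPM, a ratio of 4.44 between fed replicates 1 and 3. The ratio was 3.999 when Gm26917 and Gm42418 were left out of the library totals. Of the 20 genes, 18 were highest of the fed libraries in replicate 1 and 18 were lowest in replicate 3, beside 34.5% and 48.2% of the 8910 genes. S100a9, a calcium-binding protein of neutrophils, stood at 2716, 3912, 2824 and 1212 TPM, and its partner S100a8 at 654, 1188, 659 and 172 TPM. Ngp, a secondary granule protein, stood at 1046, 2423, 1209 and 458 TPM, and Camp, the cathelicidin, at 374, 758, 564 and 359 TPM. The unlabelled library lay between fed replicates 1 and 3 in all 4 genes, near fed replicate 2 in S100a8 and S100a9. CV values above 0.5 were found for 13 of the 18 genes that reached 10 CPM.

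Monocyte genes followed the order of fed libraries seen for late neutrophil genes, with sums of 4239, 10300, 6041 and 3202 CPM, the ratio of highest to lowest fed library being 3.22. Fn1, which encodes fibronectin, stood at 355, 1061, 504 and 175 TPM, Ctss, a lysosomal protease, at 455, 865, 565 and 411 TPM, and the lipopolysaccharide co-receptor Cd14 at 360, 432, 342 and 185 TPM. Irf8, a factor of the monocyte and dendritic cell fates, stood at 120, 127, 112 and 117 TPM. Of the 14 genes of the list that reached 10 CPM, 6 had a CV above 0.5. Irf8 stayed within a narrow range, with a CV of 0.0477, while Klf4, another factor of the list, was above 0.5.

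Macrophage genes ran the other way. Their 18 genes summed to 601, 223, 778 and 604 CPM, and 14 of the 18 were lowest of the fed libraries in replicate 1, beside 32.5% of the 8910 genes. The complement genes C1qa, C1qb and C1qc stood at 4.66, 9.36 and 3.77 TPM in fed replicate 1. In the other WT libraries they lay between 86.1 and 117 TPM, 76.8 and 101 TPM, and 53.3 and 84.6 TPM. Hmox1, the haem-degrading enzyme, stood at 139, 20.8, 155 and 119 TPM. Cd68, a lysosomal protein of macrophages that monocytes also make, was an exception, with 120, 220, 122 and 83.1 TPM, highest in fed replicate 1. Marco, a scavenger receptor, had 10, 0, 13 and 28 counts.

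Erythroid genes were all present at 1 CPM or more in the 4 WT libraries. Of the 25, 23 were lowest of the fed libraries in replicate 1, beside 32.5% of the 8910 genes. Their sums were 2621, 1466, 3143 and 2502 CPM. The carbonic anhydrases Car2 and Car1 led with means of 634 and 505 TPM, followed by the water channel Aqp1 with 239 TPM and the globin Hba-a1 with 132 TPM. Hba-a1 stood at 123, 67.5, 210 and 129 TPM, and the alpha and beta globin genes have near-identical copies. Alas2, the enzyme of haem synthesis in late erythroid cells, had a mean of only 6.42 TPM. Gata1 and Klf1, the factors of this lineage, stood at 60.7, 32.8, 60.8 and 69.1 TPM and at 57.3, 34.2, 65.2 and 61.2 TPM, each lowest in fed replicate 1.

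The leading basophil and eosinophil genes had high levels, and tissue mast cell genes were nearly silent. Prss34 and Mcpt8, proteases of basophils, stood at 660, 1794, 724 and 1250 TPM and at 317, 959, 253 and 435 TPM. Prg2 and Epx, granule proteins of eosinophils, stood at 680, 1205, 849 and 882 TPM and at 94.6, 171, 120 and 96.4 TPM. All 4 were highest in fed replicate 1. Of the 21 genes of the list, 10 were highest of the fed libraries in replicate 1, beside 34.5% of the 8910 genes. A further 8 were highest in replicate 2 and 3 in replicate 3. The proteases and tryptases of connective tissue mast cells had few reads: Mcpt4 had 0, 0, 0 and 1 counts, Tpsab1 had the same, Tpsb2 had 1, 0, 2 and 0, and Cma1 had 4, 0, 5 and 4. Over the whole list of 21 genes the sums were 934, 2020, 1026 and 1287 CPM. The median level of the list was 20.2 TPM, below the 21.6 TPM of detected protein-coding genes. At least 1 CPM in all 4 WT libraries was reached by 15 of the 21 genes.

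Megakaryocyte genes summed to 306, 356, 316 and 535 CPM. The platelet chemokine Pf4 stood at 98.1, 65.9, 95.6 and 322 TPM, and the integrin Itga2b at 46.6, 61.3, 45.8 and 92.0 TPM, both highest in fed replicate 3. Itgb3, with 33.4, 24.4, 27.0 and 31.2 TPM, and Nbeal2, with a mean of 25.5 TPM, did not show that peak. Of the 18 genes, 12 were highest of the fed libraries in replicate 3, beside 27.4% of the 8910 genes. The glycoprotein genes Gp6 and Gp1bb were at the edge of detection, with means of 0.250 and 0.160 TPM.

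Stem and early progenitor markers were present at low to moderate levels. The 24 genes summed to 798, 736, 643 and 893 CPM, 22 had at least 1 CPM in all 4 libraries, and none of the 12 that reached 10 CPM had a CV above 0.5, with a median CV of 0.282. Adgrg1, an adhesion receptor of stem and progenitor cells, led with 141, 114, 103 and 158 TPM. Gata2, a factor of progenitors and of mast cells and basophils, stood at 81.8, 79.2, 45.0 and 78.3 TPM. Ctla2a and Cd48 had means of 47.6 and 45.0 TPM, with 36.8% of the reads touching Ctla2a left uncounted because they also touched another gene. Genes more narrowly tied to long-term stem cells were low: Hlf stood at 1.77, Slamf1 at 1.77, Mecom at 0.598 and Fgd5 at 0.658 TPM on average.

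Lymphoid RNA was present although the label describes lineage-depleted marrow. The 20 B lineage genes summed to 1450, 1593, 1984 and 1009 CPM. Most of the sum came from Ighm, the heavy chain of immunoglobulin M, with 1011, 1313, 1156 and 920 TPM, and from Jchain, which joins secreted immunoglobulins, with 636, 826, 959 and 199 TPM. Cd79b, a chain of the B cell receptor complex, stood at 76.7, 26.1, 70.6 and 26.3 TPM, and Dntt, the DNA polymerase of early lymphoid cells, at 36.5, 29.0, 33.9 and 53.1 TPM. Of the 20 genes, 17 were highest of the fed libraries in replicate 2, beside 38.1% of the 8910, which was not the order of Dntt or Ighm. Igha, the heavy chain of immunoglobulin A, reached 1662, 1944, 3022 and 627 CPM.

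T and NK cell genes summed to 298, 466, 262 and 219 CPM, and much of that was Gzmb, the protease granzyme B, which mast cells and basophils also make, with 297, 772, 155 and 222 TPM. Most of the list did not share its order, since 19 of the 22 genes were highest of the fed libraries in replicate 2, beside 38.1% of the 8910. Il2rb had a mean of 26.4 TPM, Tcf7 13.7 and Lck 11.4. Dendritic cell and antigen presentation genes were steadier, with sums of 616, 481, 617 and 666 CPM. The invariant chain Cd74 led that list with 371, 347, 383 and 445 TPM, followed by Bst2 and the class II genes H2-Ab1 and H2-Eb1 with means of 89.1, 77.2 and 50.1 TPM. Xcr1, a receptor of one dendritic cell subset, had 2, 1, 0 and 2 counts.

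The summed list of stroma and endothelium, cells outside the blood lineage, had the largest ratio between libraries of the 12 lists. The 18 genes summed to 666, 180, 452 and 1883 CPM, a ratio of 10.5 between fed replicates 3 and 1, and of 11.6 without Gm26917 and Gm42418. The collagen gene Col1a1 stood at 148, 1.11, 89.0 and 455 TPM and Col1a2 at 44.3, 0.390, 25.6 and 135 TPM. Sparc, a matrix protein of bone, stood at 21.5, 0.896, 9.42 and 54.4 TPM. Col3a1, Pdgfra, Lum, Dcn and Adipoq each had 0 counts in fed replicate 1, which allows up to 3 counts or 0.473 CPM, and at most 37 counts in any other WT library. Spp1 and Pecam1, which blood cells also make, did not follow that order, with 108, 129, 69.7 and 36.7 TPM and with 43.0, 45.5, 34.3 and 36.7 TPM.

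The same sums in the 3 fed libraries of the other genotype showed a like position of replicate 1. There, the primary granule genes summed to 9954, 6969 and 7356 CPM in replicates 1, 2 and 3, and the monocyte genes to 10786, 4574 and 5851 CPM. Macrophage genes summed to 251, 915 and 907 CPM, erythroid genes to 1191, 2711 and 2619 CPM, and stroma genes to 199, 725 and 796 CPM. In both genotypes replicate 1 was thus highest of the fed libraries in granulocyte and monocyte genes and lowest in macrophage, erythroid and stroma genes. Replicate 1 also had the smallest share of reads in no gene in both genotypes, 38.3% and 37.6%. Whether that share has a part in the order of the libraries was not tested.

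**Figure D2:**
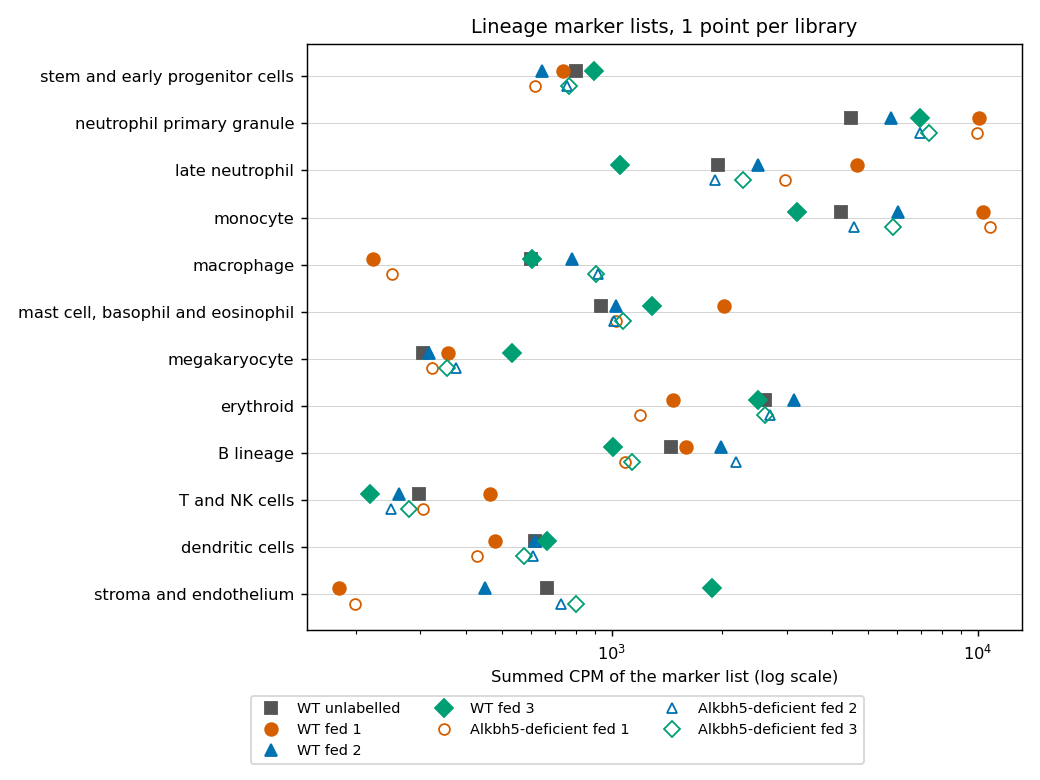
Summed CPM (x axis, log scale) of the 12 lineage marker lists (y axis), with filled symbols for the 4 WT libraries and open symbols for the 3 fed Alkbh5-deficient libraries, 1 point per library. Circles, the replicate 1 libraries, lie on the right for primary granule and monocyte genes and on the left for macrophage, erythroid and stroma genes in both genotypes, and WT fed replicate 3 lies far to the right for stroma genes.

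Among transcription factors, signal-dependent and myeloid factors had the highest levels. The AP-1 component Jund stood at 995, 1106, 1095 and 1600 TPM, Junb at 419, 445, 528 and 647 TPM and Jun at 430, 454, 503 and 427 TPM. Atf4, a factor of the amino acid and stress response, stood at 787, 1097, 736 and 607 TPM. All 26 signal-dependent factors were above 1 CPM in every WT library, none had a CV above 0.5, and their sums were 5997, 5907, 6020 and 6418 CPM.

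Cebpb, a C/EBP factor of granulocytes and macrophages, led the myeloid factors with 831, 1297, 971 and 1088 TPM on rank 71 among protein-coding genes. Irf5 stood at 282, 370, 220 and 182 TPM, Spi1 at 241, 321, 204 and 228 TPM, and Nr4a1 at 233, 250, 281 and 228 TPM. Cebpa and Cebpe, the C/EBP factors of early and of late granulocytes, had means of 104 and 31.1 TPM. All 21 myeloid factors were above 1 CPM in every WT library. The monocyte factor Klf4 was the only one of the 20 that reached 10 CPM with a CV above 0.5, at 118, 237, 111 and 70.3 TPM. Irf5, Spi1 and Cebpb were each highest in fed replicate 1, as the monocyte and granule genes were.

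The stem and progenitor factors were led by Myc, with 296, 272, 235 and 365 TPM, and by Zfpm1, the partner of GATA factors, with 271, 182, 299 and 375 TPM. Lmo2, an adaptor of progenitor factor complexes, stood at 143, 167, 134 and 157 TPM and Myb, a factor of progenitor growth, at 148, 104, 129 and 98.6 TPM. None of the 19 that reached 10 CPM had a CV above 0.5. Hoxa9, Meis1 and Hoxa10 had means of only 3.05, 4.09 and 0.170 TPM. Runx1 differed in another way: the fed libraries agreed closely, with 56.2, 53.3 and 52.7 TPM, and the unlabelled library stood above them at 99.2 TPM.

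Among erythroid and lymphoid factors, the E protein Tcf3 and the lymphoid regulator Ikzf1 led with means of 180 and 142 TPM and low CV values of 0.141 and 0.128. Of the 17 factors that reached 10 CPM, 5 had a CV above 0.5: Ebf1, Pax5, Ikzf3, Bach2 and Lef1, known for roles in lymphoid cells. Ebf1, which starts the B cell program, stood at 53.2, 3.79, 54.0 and 21.5 CPM. Its CV of 0.961 was the highest of the factors in the 4 lists that reached 10 CPM.

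The receptors of the culture cytokines differed in level, with means from 214 TPM for Csf2rb to 13.2 TPM for Flt3 among those given here. The common beta chain Csf2rb stood at 257, 278, 150 and 169 TPM and the interleukin-3 beta chain Csf2rb2 at 119, 144, 74.6 and 112 TPM. The 2 genes are near-identical neighbours, so the split of reads between them is uncertain. Kit had 34.8, 25.8, 27.3 and 20.6 TPM, and the interleukin-3 alpha chain Il3ra 15.2, 35.8, 25.9 and 30.4 TPM. Their means of 27.1 and 26.8 TPM do not differ beyond the spread between libraries. Flt3 followed with 12.4, 14.3, 12.7 and 13.2 TPM and a spread no larger than counting error between the fed libraries. Kit ranked 4653 and Flt3 6964 among protein-coding genes.

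Other cytokine receptors were led by Csf2ra, the alpha chain for GM-CSF, with 127, 214, 157 and 156 TPM. The tumour necrosis factor receptors Tnfrsf1b and Tnfrsf1a followed with means of 147 and 140 TPM, then the interferon gamma receptor chain Ifngr1 at 176, 172, 142 and 65.6 TPM. Of the 24 genes, 23 were above 1 CPM in every WT library, and none of the 21 that reached 10 CPM had a CV above 0.5. Csf1r and Csf3r, the receptors of the macrophage and granulocyte growth factors, had means of 117 and 88.8 TPM.

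Chemokine and lipid mediator receptors were led by Cxcr4, the receptor that holds progenitors in marrow, with 211, 133, 162 and 108 TPM. Ccr2, of monocytes, stood at 77.4, 77.9, 53.9 and 20.7 TPM and Ccr1 at 62.4, 61.6, 45.8 and 19.2 TPM. Ptger4, a prostaglandin E receptor, stood at 41.7, 52.9, 40.1 and 29.3 TPM. All 4 were lowest in fed replicate 3, as were 15 of the 20 genes among the fed libraries, beside 48.2% of the 8910 genes. Among adhesion and surface antigen genes, 23 of 32 were lowest of the fed libraries in replicate 3, and 24 were highest in replicate 1, beside 34.5% of the 8910. The Fc receptor chain Fcer1g stood at 314, 695, 364 and 206 TPM, the leukocyte integrin chain Itgb2 at 328, 561, 365 and 264 TPM and the hyaluronan receptor Cd44 at 427, 408, 246 and 171 TPM. Cd14, given above, was the other leading gene.

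**Figure D3:**
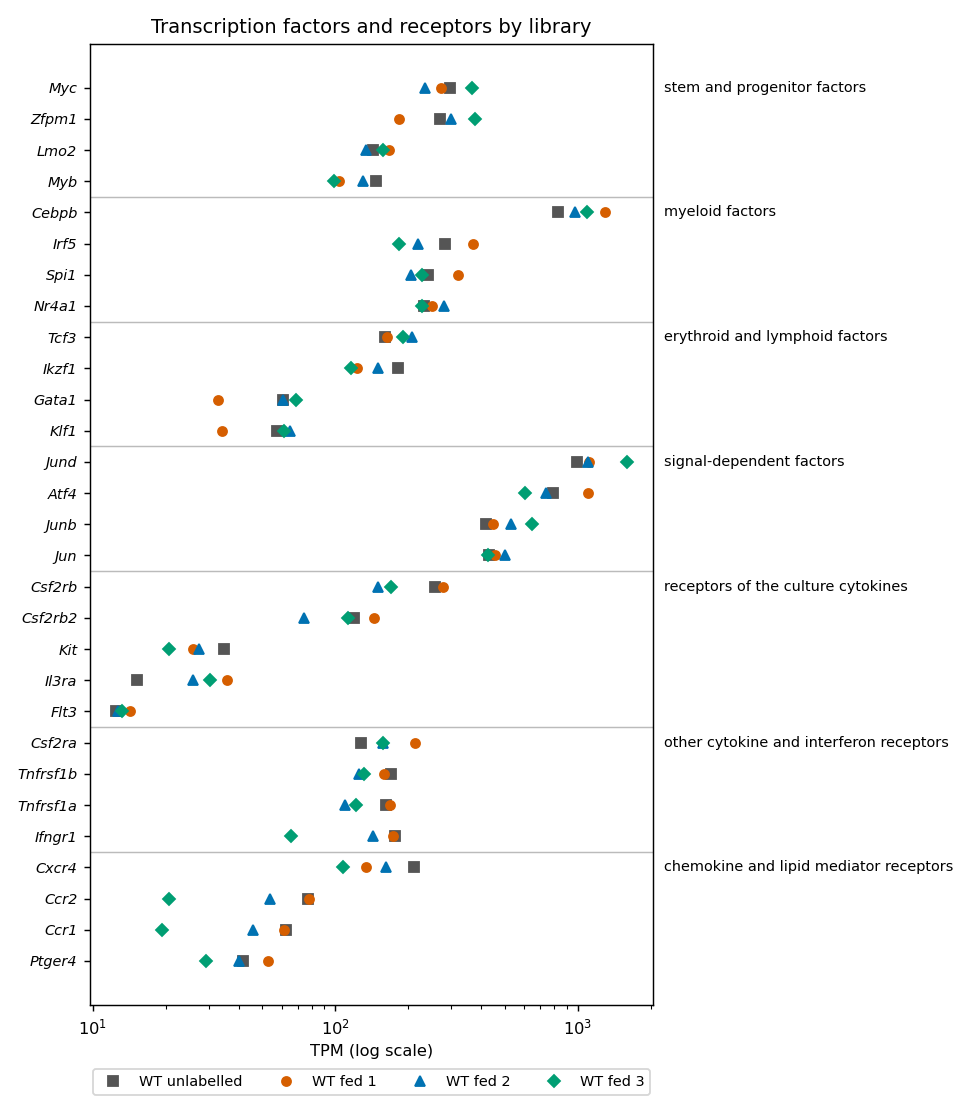
TPM (x axis, log scale) in each WT library of the 4 highest genes of 6 factor and receptor lists and of 5 culture cytokine receptor genes (y axis, by list). Points of 1 gene mostly lie close together for Lmo2, Jun or Flt3, while fed replicate 3 lies to the left for Ifngr1, Ccr2 and Ccr1 and fed replicate 1 to the left for Gata1 and Klf1.

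Of the 10 metabolic lists, 9 had a median level above that of detected protein-coding genes. The median level was 139 TPM for nuclear-encoded oxidative phosphorylation, 119 for redox and iron genes, 82.1 for the pentose phosphate pathway and 66.4 for both the tricarboxylic acid (TCA) cycle and glycolysis. It was 61.9 for glutamine and amino acid supply, 53.8 for nucleotide synthesis, 39.8 for serine, glycine and folate genes and 32.6 for fatty acid oxidation. Only sterol and fatty acid synthesis, with 13.8 TPM, lay below the median of 21.6 TPM over protein-coding genes detected in all 4 libraries. Each list was chosen for known enzymes, many of which every cell uses, so these medians are a description.

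All 37 oxidative phosphorylation genes were above 1 CPM in every WT library, and none had a CV above 0.5. The ATP synthase subunits Atp5a1 and Atp5b led with 758, 983, 828 and 842 TPM and with 534, 625, 576 and 609 TPM. The cytochrome oxidase subunit Cox8a stood at 371, 525, 465 and 553 TPM, and the ATP synthase subunit Atp5h at 342, 544, 423 and 265 TPM. Their sums were 3989, 5253, 4893 and 4931 CPM, so the 3 fed libraries lay close together (5025 ± 198, SD, n = 3) and above the unlabelled one.

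Glycolysis was led by Pkm, the pyruvate kinase of growing cells, with 416, 808, 459 and 588 TPM, followed by Aldoa with 276, 501, 335 and 353 TPM, Ldha with 272, 343, 289 and 328 TPM and Gpi1 with 187, 307, 198 and 220 TPM. Gapdh stood at only 53.9 TPM on average, and as a gene with many processed copies its count is uncertain. Of the 22 genes, 16 were highest of the fed libraries in replicate 1, beside 34.5% of the 8910 genes. In the pentose phosphate pathway, which supplies NADPH and ribose, Taldo1 and Tkt led with means of 487 and 276 TPM, followed by G6pdx with 129, 221, 134 and 92.8 TPM and Pgd with 82.1 TPM on average. The TCA cycle was led by Mdh2, Sdha and Idh2 with means of 293, 182 and 175 TPM. Only Idh1, of the 27 TCA cycle genes that reached 10 CPM, had a CV above 0.5.

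Ferritin and glutathione peroxidase led the redox and iron genes. Ftl1 stood at 1466, 1887, 1650 and 1924 TPM, Gpx1 at 1395, 1592, 1576 and 1754 TPM, Fth1 at 641, 616, 676 and 493 TPM, and Cyba, a subunit of the phagocyte oxidase, at 276, 545, 344 and 359 TPM. Ferritin genes also have processed copies. Hmox1 and the phagocyte oxidase subunit Cybb were the 2 of 24 with a CV above 0.5.

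Serine and folate genes were led by Shmt2, Phgdh, Mthfd1 and Ahcy with means of 229, 197, 167 and 101 TPM, and nucleotide synthesis by Impdh2, Uck2, Paics and Rrm2 with 191, 151, 138 and 123 TPM. Impdh2, the enzyme that commits purines to guanine nucleotides, stood at 173, 212, 188 and 190 TPM with a CV of 0.0331. The amino acid transporter chains Slc3a2 and Slc7a5 had means of 311 and 222 TPM, ornithine decarboxylase Odc1 stood at 404, 262, 308 and 248 TPM, and Glud1 at 193 TPM on average. Fatty acid oxidation was led by Etfb, Acadl, Acaa2 and Etfa with 197, 155, 123 and 80.5 TPM. Of the reads touching Etfb, 53.9% were left uncounted because they also touched another gene, so its level is understated. Acly, Srebf2 and Fasn led the lipid synthesis genes with 117, 90.2 and 67.3 TPM.

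**Figure D4:**
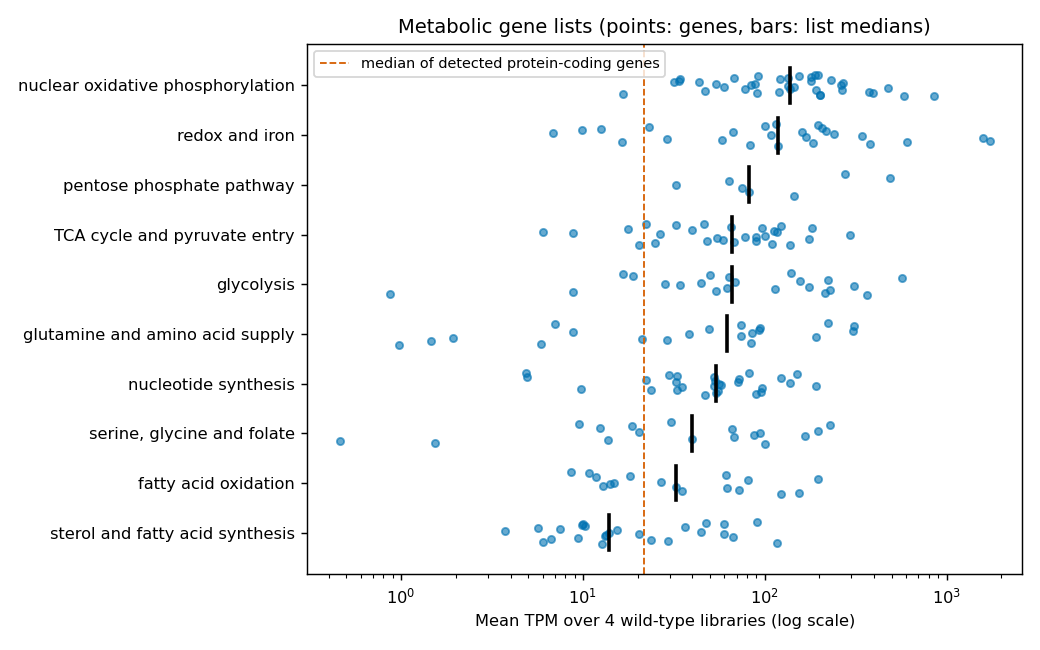
Mean TPM over the 4 WT libraries (x axis, log scale) of each gene (points) in 10 metabolic lists (y axis), with the list median as a black bar and the median of detected protein-coding genes as a dashed line. The bars fall from 139 TPM for oxidative phosphorylation to 13.8 TPM for sterol and fatty acid synthesis, the only list below the dashed line.

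The cultures carried the RNA of dividing cells. All 29 proliferation genes were above 1 CPM in every WT library and none had a CV above 0.5. The replication helicase genes Mcm3, Mcm6 and Mcm7 stood at 388, 379, 391 and 323 TPM, at 304, 265, 287 and 241 TPM and at 247, 243, 264 and 254 TPM. Mki67, a marker of cycling cells, spread more, with 601, 273, 479 and 205 TPM. Heat shock genes Hspa8 and Hsp90aa1 stood at 2103, 1688, 1915 and 1224 TPM and at 1972, 889, 1842 and 1367 TPM, with the immediate early gene Ier2 at 437, 426, 486 and 558 TPM.

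A CV above 0.5 was found for 395 of the 8910 genes, the 4.43% given above, of which 313 were protein-coding. Immunoglobulin genes were frequent among them, with 23 of 33 variable-region and 8 of 10 constant-region genes above 0.5, and so were small RNA classes, with 6 of 8 small nucleolar RNA genes and 5 of 6 of the class of miscellaneous RNA. The minimum of 10 CPM is on the mean of the same fed libraries. A gene of low level can therefore enter through 1 high library, which also raises its CV, so these counts and those below are a description. In the lists, the counts were 5 of 6 for stroma, 9 of 12 for macrophage, 9 of 11 for B lineage, 13 of 18 for late neutrophil, 6 of 14 for monocyte, 4 of 10 for mast cell, basophil and eosinophil, and 8 of 23 for erythroid genes. They were 0 of 12 for stem and early progenitor, 0 of 9 for primary granule, 1 of 9 for dendritic cell, 1 of 6 for megakaryocyte and 2 of 5 for T and NK cell genes. In other lists the counts were 0 of 37 for oxidative phosphorylation, 0 of 20 for glycolysis, 0 of 27 for nucleotide synthesis, 0 of 26 for signal-dependent factors and 0 of 5 for the culture cytokine receptors. A count of 0 in a short list is near the 4.43% over all genes. Median CV values were 0.282 for stem and early progenitor, 0.252 for primary granule and 0.213 for glycolysis genes, above the 0.182 over all 8910 genes. They were below 0.182 for the oxidative phosphorylation, nucleotide synthesis, signal-dependent factor and culture cytokine receptor lists. Just above and just below the threshold stood Grk5 at 0.501 and Vwf at 0.4999. The count and the genes depend on each fed library. From replicates 1 and 3 alone the count was 780, of which 282 were among the 395. Without replicate 1 it was 550, with 205 among the 395, and without replicate 3 it was 326, with 181 among them.

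The 20 genes with the highest CV, leaving out predicted genes and pseudogenes, fell into a few kinds. Xist led with a CV of 1.73. Stroma genes were Col1a2, Col1a1, Sparc, Cxcl12 and Col14a1, with CV values between 0.996 and 1.35. Immunoglobulin genes were Ighg1 and the variable-region genes Ighv1-19, Ighv1-9, Igkv1-135, Igkv14-111 and Igkv19-93. Ighg1, the heavy chain of immunoglobulin G1, stood at 42.1, 640, 84.7 and 11.9 CPM. Ighv1-19 stood at 2.50, 31.9, 4.05 and 1.57 CPM, and Igkv14-111 at 69.1, 55.8, 118 and 1.05 CPM, so that different variable regions peaked in different libraries.

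Granulocyte and inflammatory genes among the 20 peaked in fed replicate 1. The collagenase Mmp8 stood at 18.1, 93.4, 26.7 and 8.21 CPM and the gelatinase Mmp9 at 23.4, 108, 27.1 and 15.7 CPM. Ccl2, a monocyte-attracting chemokine, stood at 16.8, 82.8, 23.7 and 3.49 CPM, and Chil1, a chitinase-like protein, at 4.59, 25.9, 6.78 and 2.27 CPM. The macrophage scavenger receptor Cd163 stood at 44.8, 2.05, 60.0 and 25.3 CPM, the carboxypeptidase gene Cpm at 19.2, 3.16, 22.7 and 5.24 CPM, and Ebf1 at the values given above, all 3 lowest in fed replicate 1. Snora73b, a small nucleolar RNA, stood at 8.48, 1.10, 11.7 and 26.2 CPM.

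The unlabelled WT library lay between the fed ones in most of the variable genes. It lay inside the range of the fed libraries for 37.8% of the 8910 genes and for 288, or 72.9%, of the 395 with a CV above 0.5, among them all 20 with the highest CV. The rule that chose the 395 widens the range of the fed libraries, so the larger share is a description. Of the 395 genes, 171 were highest in fed replicate 1, 166 in fed replicate 2 and 58 in fed replicate 3, beside 34.5%, 38.1% and 27.4% of the 8910 genes. They were lowest in fed replicate 3 for 237 genes, in fed replicate 1 for 130 and in fed replicate 2 for 28, beside 48.2%, 32.5% and 19.3% of the 8910.

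Libraries that had no part in choosing these genes shared part of the spread. Over the 3 fed Alkbh5-deficient libraries, 2.03% of the 8910 genes had a CV above 0.5, and the median CV was 0.125. Of the 395 genes from the WT libraries, 125 (31.6%) passed there too, and these were 69.1% of the 181 that passed there. Of the 20 genes with the highest CV, 15 passed there too, among them Xist, Col1a1 with a CV of 0.861 and Mmp8 with 0.967. The 5 that did not were Ighv1-19, Snora73b, Cxcl12, Igkv1-135 and Chil1, with CV values from 0.114 to 0.389. Replicate 2 of those libraries was also the one with Xist RNA, at 1934 CPM against 0.279 and 0.259 in replicates 1 and 3. Median CV values of the lists, WT first, were 0.753 and 0.718 for macrophage, 0.706 and 0.611 for B lineage, 0.446 and 0.443 for erythroid and 0.425 and 0.426 for monocyte genes. The late neutrophil genes had 0.707 and 0.276, and the mast cell, basophil and eosinophil genes 0.407 and 0.125. Differences between these pairs were not tested.

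**Figure D5:**
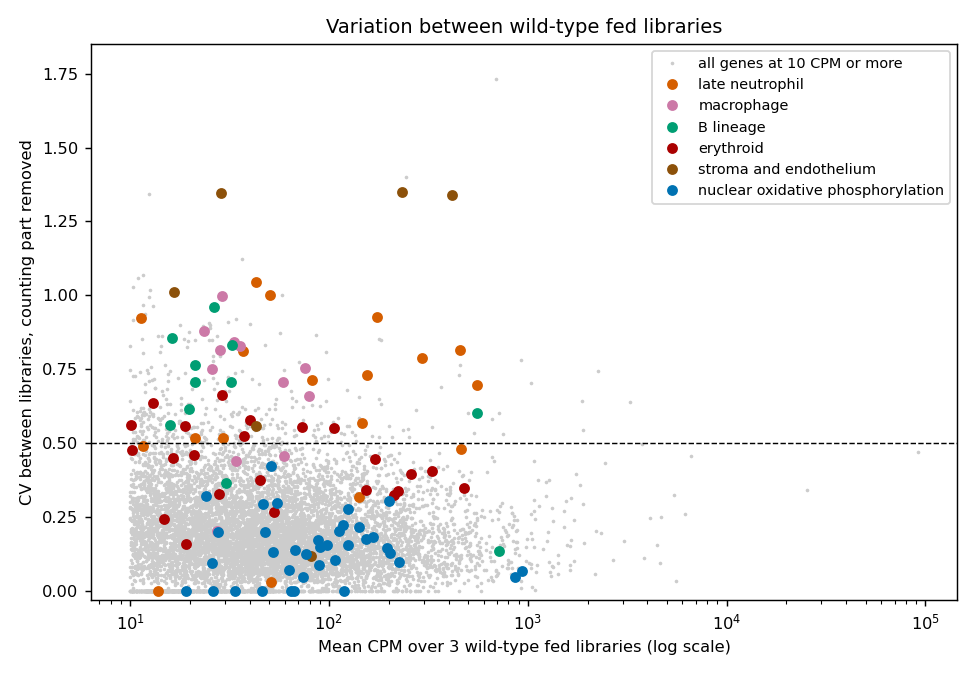
CV between the 3 WT fed libraries with the counting part removed (y axis) against mean CPM (x axis, log scale) for 8910 genes with at least 10 CPM, with the members of 6 lists in colour and the threshold of 0.5 as a dashed line. Stroma, macrophage, B lineage and late neutrophil genes lie mostly above the line, and all 37 oxidative phosphorylation genes below it.

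Feeding with s4U was compared with no feeding in the WT libraries by edgeR's quasi-likelihood test with Benjamini-Hochberg adjustment, 3 fed libraries against 1, where the lone library is assumed to vary like the fed ones. No gene passed an adjusted p of 0.05 among 14321 tested (0%), and 661 (4.62%) had an unadjusted p under 0.05. The root of the common dispersion, a measure of the spread between replicates, was 0.298. The genes with the smallest p on the higher side were processed pseudogenes. Hist1h2al had 4, 72, 95 and 62 counts, with a log2 fold change of 4.44 ± 0.71 (SE, adjusted p = 0.664). Gm16385 and Gm12715 had log2 fold changes of 2.96 ± 0.59 and 1.72 ± 0.34 (SE, adjusted p = 0.851 for both). Gm47692 had 0, 18, 33 and 26 counts. DESeq2 called 3 genes (Hist1h2al, Gm16385 and Gm12715), all higher, and leaving out fed replicate 2 gave 6 calls, one of them Xist.

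On the lower side the smallest p belonged to Ell2, an elongation factor of RNA polymerase II, with 148, 54.6, 75.7 and 41.6 CPM and a log2 fold change of -1.22 ± 0.33 (SE, adjusted p = 0.851). Rc3h2, an RNA-binding ubiquitin ligase, stood at 129, 49.5, 67.6 and 38.6 CPM, Mat2a, which makes S-adenosylmethionine, at 169, 72.6, 89.8 and 57.7 CPM, and the translesion polymerase Polk at 29.8, 10.6, 12.97 and 6.81 CPM. In each of the 4 genes every fed library lay below the unlabelled one, and none of the differences passed the test.

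The lists are given by their median log2 difference of fed over unlabelled beside that of all genes tested, which was 0.04. Of all 14321 genes tested, 7537 were higher in the fed libraries. No member of any list was called. Scaling by total counts alone moved the median of all genes to -0.12, a shift larger than 0.1, and the values here are with TMM scaling. The primary granule genes had a median of 0.91 (9 of 9 higher), late neutrophil genes 0.75 (20 of 20), glycolysis 0.56 (20 of 21) and oxidative phosphorylation 0.44 (37 of 37). With total counts alone they had 0.75 (8 of 9), 0.59 (19 of 20), 0.40 (17 of 21) and 0.28 (31 of 37). Pentose phosphate genes had 0.61 (6 of 7 higher) and fatty acid oxidation genes 0.54 (14 of 17). With total counts alone these 2 lists had 0.45 (6 of 7) and 0.37 (13 of 17). Fed libraries did not all share the direction: the late neutrophil sum was 1052 CPM in fed replicate 3, below the 1946 CPM of the unlabelled library. B lineage genes had -0.32, with 5 of 19 higher, and chemokine and lipid mediator receptors -0.27, with 8 of 19. The libraries also differed by gene length. Over 9004 genes, the deviation of a library from the mean of the 4 was correlated with merged exon length. Spearman rho was 0.46 in the unlabelled library and -0.31, 0.11 and -0.22 in fed replicates 1, 2 and 3. Fed replicate 2 thus had the sign of the unlabelled library. Deviations of a gene are tied to each other through the mean. All genes in such a correlation share the library, and its part in the comparison was not tested.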

How the data were processed

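RNA of lineage-depleted mouse marrow cultures was sequenced from 8 libraries, of which the 4 WT ones are described. The deposited values are whole-number read counts per gene that the authors did not normalize, 1 table per library. Per the submitters' processing notes, the tools were HTSeq, HISAT2, STAR, cutadapt, Picard and DESeq2, and the builds mm10 and GRCm38, with the strand setting, roles and versions not given in the sources used here. Of the reads in several genes whose strands were all known, 204704 lay in genes of 1 strand and 1 in genes of opposite strands. Another 226259 such reads touched a gene of unknown strand and were not placed. The 928 entries that name no gene stayed out of library sizes and tests.

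CPM used the sum of gene counts. TPM used the merged exon length of GENCODE M21 (GRCm38), known for 27070 of the 27710 genes. The CV over the 3 fed libraries was the root of the squared CV minus 1 over the mean count, floored at 0, for genes with a mean of at least 10 CPM. Fed and unlabelled libraries were compared with edgeR 4.0.16 in R 4.3.3 (TMM, default low-count filter, robust quasi-likelihood fit, tested on simulated data), with DESeq2 1.42.0 as an alternative. The SE was derived from the fold change and the F statistic.

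The 32 gene lists (620 genes), the thresholds and the libraries were chosen with earlier results of these data known, and the lists overlap in some genes. Named genes are Alkbh5, the 20 highest protein-coding and 5 highest other genes, the 4 highest members of each list with members at 0, the cytokine receptors of the culture, the 20 genes with the highest CV, and the 4 genes with the smallest p per direction. A few members that this rule names are not reported here. All other genes were named after their values were seen. Alternatives were other scalings, filters and lengths, and each fed library left out. Counting error only is removed from the CV, and reads without molecular identifiers are not independent molecules.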

Additional observations from a re-analysis of the deposited data

Results flagged for a closer look

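Of the 32 list sums tested over the 4 WT libraries, 2 had 1 library far from the other 3. Such a gap arises by chance in about 1 in 20 groups. The summed CPM of the myeloid factors was 3588 in fed replicate 1, against 2785 in the unlabelled library and 2841 and 2835 in fed replicates 2 and 3. The summed CPM of the glutamine and amino acid supply genes was 3135 in the unlabelled library, against 2596, 2545 and 2564 in fed replicates 1, 2 and 3.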

How the results depend on the processing

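The count of genes that differed between fed and unlabelled WT libraries was 0 with RLE factors, total-count scaling, a 1 CPM filter and without the ribosomal-repeat genes, 5 without a low-count filter, 3 with DESeq2, and between 0 and 6 with a fed library left out. The 100 highest genes held 26.8% of gene counts on average, and 18.1% without the 2 ribosomal-repeat genes. Genes with a CV above 0.5 numbered 395, with 627 at a minimum of 5 CPM, 240 at 20 CPM, and between 326 and 780 with a fed library left out. Of 374 such genes with TMM scaling, 350 were among the 395, and of 402 over all 4 WT libraries, 244 were. The fed against unlabelled difference was followed through the alternative runs only for the 4 genes per direction with the smallest p. None of these reversed, and they had been chosen for their small p. Of 204 other values for single genes and lists, 195 kept their side or stayed within the spread, and 9 pseudogene differences passed the threshold. For lists this is a weak check, because the allowed move was the SD over the fed libraries. The mean stroma sum fell from 795 to 432 CPM without fed replicate 3 and still counted as within the spread. The single genes followed for CV were those with the highest values. The causes were not tested. Depth limits genes of a few counts, where the counting error exceeds the spread, and 1 unlabelled library limits the fed comparison. No paired analysis was possible because the unlabelled WT library has no replicate number in the labels and shares none with the fed libraries.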
